A study of Mus musculus with 2 samples.

Results

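The Obox genes are a mouse family of oocyte-specific homeobox genes, and their response to retinoic acid (RA) was described in embryonic stem (ES) cells with and without the histone demethylase Utx. The members are all genes whose platform symbol starts with Obox, which were 8 of 22485 named genes and 12 of 44397 features. The lines were a Utx knockout (UtxKO) and the wild-type mouse ES cell line V6.5. Utx is the product of Kdm6a on the X chromosome and removes the repressive histone mark H3K27me3. For the knockout the labels also name V6.5, and neither its allele nor the number of clones is given in the sources used here. Both lines were kept on gelatin with the cytokine LIF, and the treated cells then spent 48 h without LIF and with 100 nM RA, so the 2 changes cannot be told apart. Each line had 1 dual-colour Agilent array that held RA-treated RNA (Cy5) against untreated RNA (Cy3) of the same line. Every gene thus has 2 values, 1 log2 ratio per line, with no replicate. The genes were selected on their shared name, and the family itself was chosen by its log2 ratios on these 2 arrays, so the values are a description and no test was run.

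Obox proteins are homeodomain transcription factors of the PRD class, and the family is found in rodents. Several members are stored as maternal transcripts in the egg and others are switched on in the early embryo, where the family takes part in activating the zygotic genome. A small share of cells in a mouse ES cell culture passes through a transient state that resembles the 2-cell embryo, in which genes such as Zscan4 and Tcstv1 are active, and Obox4 has been described as a gene of this state.

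A ratio above 0 was read as higher in RA-treated cells, since the labels put the RA-treated RNA in the Cy5 channel. This direction is likely but not stated. The RA target Cyp26a1 had 4.27 on the UtxKO array and 3.54 on the V6.5 array, and the RA receptor gene Rarb had 2.40 and 2.38 in the same order, which goes with this reading. Over all features the 2 arrays had a Pearson correlation of 0.84. Among genes with 2 to 9 features, the SD between the features of a gene had a median of 0.14 on each array. Kdm6a itself had -0.16 on the UtxKO array and -0.39 on the V6.5 array, and since a ratio within a line compares 2 treatments, it does not check the knockout. Signal over background was not used here, so a ratio near 0 does not tell a transcript at equal level in both conditions from one too weak to measure. The level of ES cell markers could not be checked for the same reason.

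The measured Obox genes fell into 2 kinds at a threshold of 2-fold. Both Obox4 copies, Obox4-ps30 and Obox4-ps23, were far higher in RA-treated cells of both lines, by at least 4.63-fold. The other 6 members stayed under 2-fold on both arrays. On the UtxKO array these 6 lay between -0.19 and 0.10, and on the V6.5 array between -0.18 and 0.73.

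Obox4-ps30, named as an Obox4 pseudogene in the annotation, had 1 feature. Its log2 ratio was 2.90 on the UtxKO array and 3.26 on the V6.5 array. Untreated cells were thus exceeded 7.44-fold by RA-treated UtxKO cells and 9.60-fold by RA-treated V6.5 cells. It ranked 64 from the top among named genes on the UtxKO array and 46 on the V6.5 array.

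Obox4-ps23, another Obox4 pseudogene by annotation, had 2 features that lay close together. They gave 2.17 and 2.25 on the UtxKO array, against 3.29 and 3.15 on the V6.5 array. The gene mean was 2.21 ± 0.06 on the UtxKO array and 3.22 ± 0.10 on the V6.5 array (SD between 2 features, 1 array each). This made RA-treated over untreated 4.63-fold in UtxKO cells and 9.31-fold in V6.5 cells. Features of a gene on 1 array are not replicates of that line. The gene ranked 116 from the top on the UtxKO array and 49 on the V6.5 array.

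**Figure D1:**
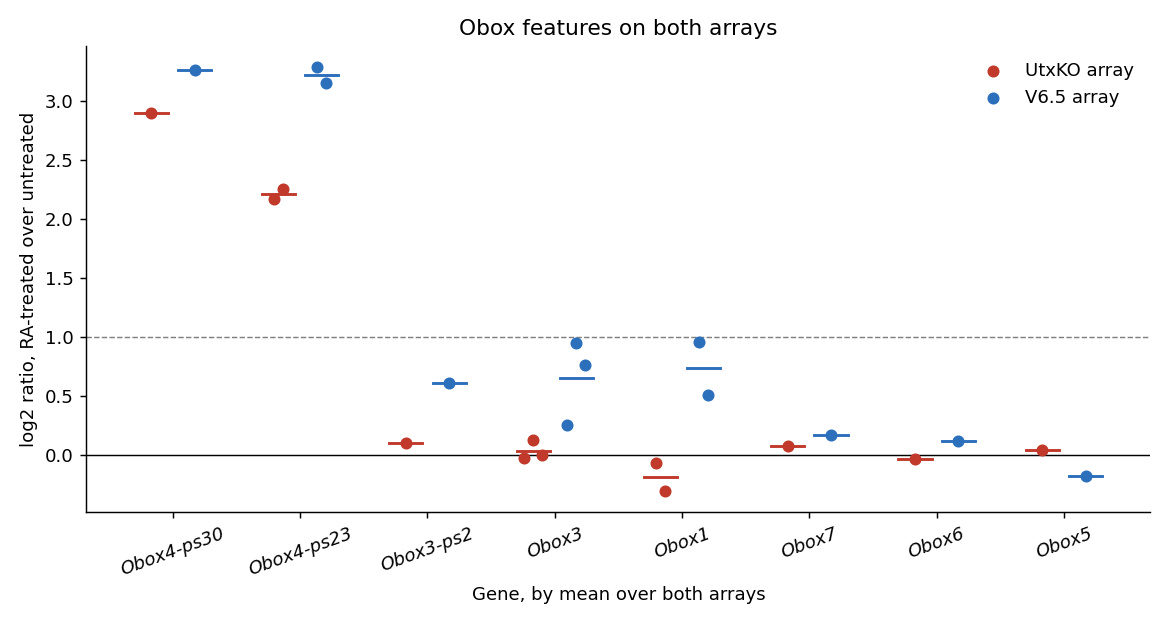
Ratios (log2) between RA-treated and untreated RNA for each of the 12 Obox features (points), with UtxKO left in red and V6.5 right in blue, and the gene mean as a bar. The dashed line marks a log2 ratio of 1. All 3 Obox4 features lay above 2 on both arrays, and all 9 features of the other genes lay below 1.

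Obox3, a member expressed from the embryo's own genome, had 3 features. They gave -0.03, 0.12 and 0.0018 on the UtxKO array, against 0.25, 0.95 and 0.76 on the V6.5 array. The means were 0.03 ± 0.08 on the UtxKO array and 0.65 ± 0.36 on the V6.5 array (SD between 3 features, 1 array each). The 3 V6.5 values spread over a wide range. Obox3-ps2, a pseudogene related to Obox3, had 1 feature with 0.10 on the UtxKO array and 0.60 on the V6.5 array. Its V6.5 value lay within the range of the Obox3 features.

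Obox1, one of the members stored in the egg, had 2 features. They gave -0.07 and -0.30 on the UtxKO array, against 0.96 and 0.51 on the V6.5 array. The means were -0.19 ± 0.17 on the UtxKO array and 0.73 ± 0.32 on the V6.5 array (SD between 2 features, 1 array each). The mean ratio of Obox1 was thus negative on the UtxKO array and positive on the V6.5 array. Opposite signs on the 2 arrays were also found for Obox5 and Obox6, which makes 3 of 8 Obox genes, beside 24.4% of all named genes. On the V6.5 array RA-treated cells exceeded untreated cells 1.66-fold for Obox1.

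The remaining members each rested on 1 feature with a ratio near 0. Obox7, another maternal member, had 0.08 on the UtxKO array and 0.17 on the V6.5 array. Obox6, which has been used as a factor in reprogramming to pluripotency, had -0.04 on the UtxKO array and 0.12 on the V6.5 array. Obox5, also a maternal member, had 0.04 on the UtxKO array and -0.18 on the V6.5 array. Between the 25th and 75th percentiles of all named genes lay ratios from -0.18 to 0.16 on the UtxKO array and from -0.18 to 0.15 on the V6.5 array, so these 3 genes stood in or at the edge of the bulk.

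By descending ratio, the order on the UtxKO array was Obox4-ps30, Obox4-ps23, Obox3-ps2, Obox7, Obox5, Obox3, Obox6 and Obox1. From Obox3-ps2 down to Obox6, neighbours differed by less than the feature SD of 0.14. On the V6.5 array the order was Obox4-ps30, Obox4-ps23, Obox1, Obox3, Obox3-ps2, Obox7, Obox6 and Obox5. There, the first pair of genes, the group from Obox1 to Obox3-ps2, and the pair of Obox7 and Obox6 each held neighbours closer than that SD.

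At a threshold of 2-fold, 2 of 8 Obox genes were higher on the UtxKO array, where 2.92% of all named genes were. On the V6.5 array 2 of 8 were higher, where 2.52% of all named genes were. The same 2 genes passed on both arrays, as did 1.69% of all named genes. No Obox gene was 2-fold lower on either array, against 1.65% of named genes on the UtxKO array and 1.59% on the V6.5 array. By features, 3 of 12 passed on each array, beside 2.94% of all features on the UtxKO array and 2.64% on the V6.5 array. At 1.5-fold, 2 of 8 Obox genes were higher on the UtxKO array and 5 of 8 on the V6.5 array, where Obox1, Obox3 and Obox3-ps2 joined the Obox4 copies, beside 7.28% and 6.69% of named genes. At 3-fold the count was again 2 of 8 on each array, beside 1.19% of named genes on the UtxKO array and 0.947% on the V6.5 array. Since the family was picked with these ratios known, nothing is read from these shares. The family median was 0.06 on the UtxKO array and 0.63 on the V6.5 array, beside -0.02 on each array for all named genes.

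**Figure D2:**
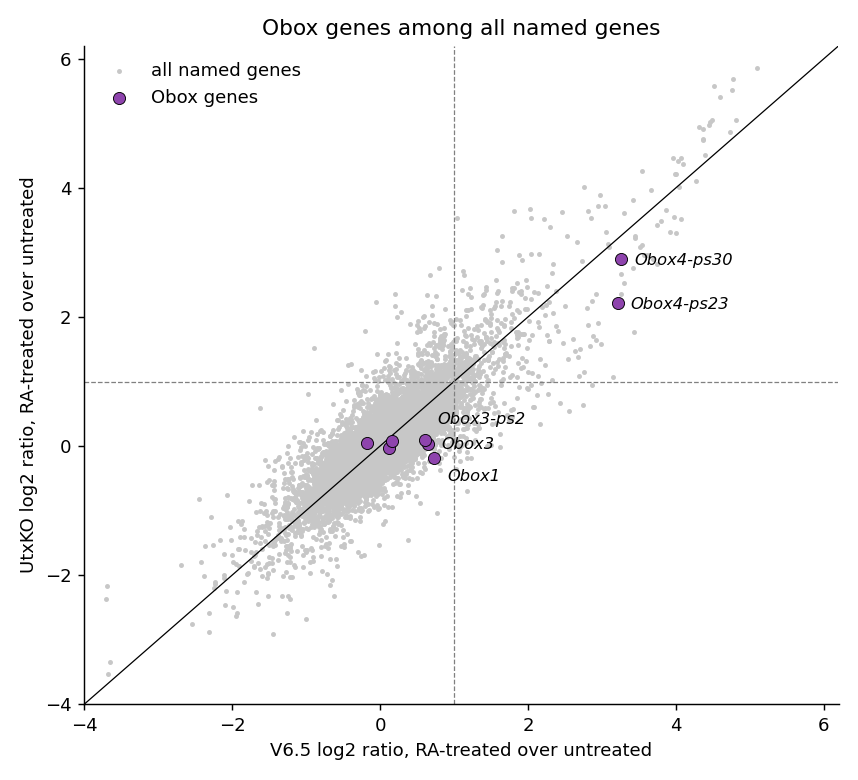
Log2 ratio on the UtxKO array (vertical) against the V6.5 array (horizontal) for all named genes (grey) and the 8 Obox genes (purple). The solid line marks equal ratios and the dashed lines a log2 ratio of 1. Both Obox4 copies lay at the upper end and, like Obox1, Obox3 and Obox3-ps2, below the line of equal ratios.

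The knockout ratio was below the V6.5 ratio for 7 of 8 Obox genes and for 11 of 12 features. Over all named genes this held for 49.3%. Both Obox4 copies, the members at least 2-fold higher on both arrays, were among the 7, and of the 379 other genes that high on both arrays 39.6% had a lower ratio in the knockout. The difference, UtxKO minus V6.5, was -1.01 for Obox4-ps23, which made its RA ratio 2.01-fold lower in the knockout. Its features differed by -1.12 and -0.90. For Obox1 the difference was -0.92, and its features gave -1.02 and -0.81. Both genes lay in the lowest part of the distribution, at rank 102 and rank 130 from the bottom of 22485.

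Obox3 followed with -0.62 and Obox3-ps2 with -0.51. Obox4-ps30 had -0.37, although its V6.5 ratio was close to that of Obox4-ps23. The differences of Obox6 and Obox7 were small, at -0.15 and -0.09, and Obox5 was the member with a higher ratio in the knockout, by 0.22. The middle 90% of named genes lay between -0.38 and 0.41, so Obox4-ps23, Obox1, Obox3 and Obox3-ps2 fell below this range. The family median was -0.44, beside 0.0031 for all named genes. At 2-fold, 1 of 8 Obox genes was lower in the knockout, as were 0.467% of named genes, and 0 were higher, as were 0.583%. With 1 array per line these differences have no replicate check.

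**Figure D3:**
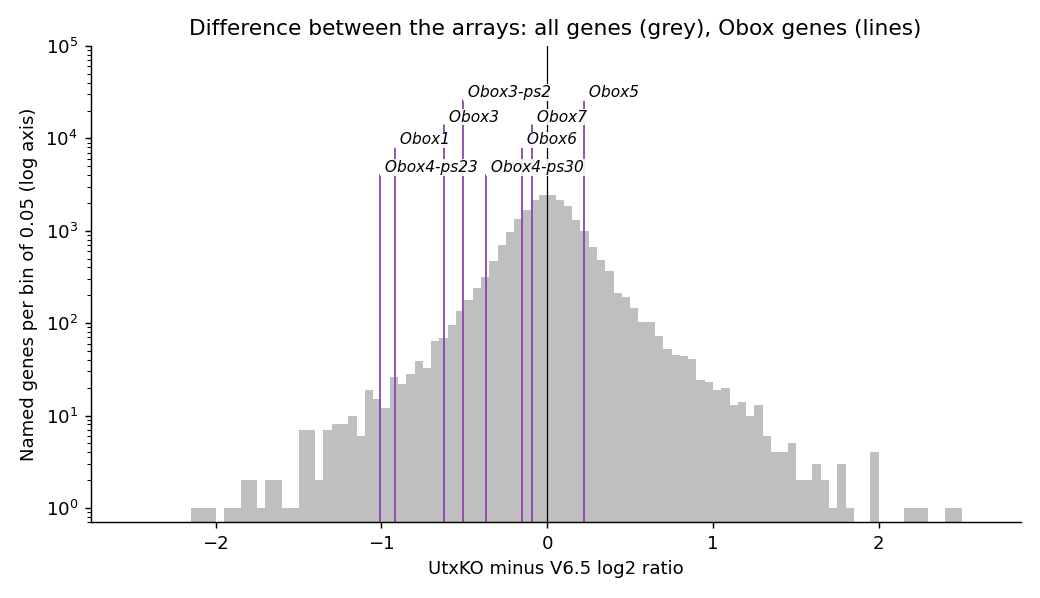
Distribution of the UtxKO minus V6.5 difference in log2 ratio over all named genes (grey bars, log axis) with each Obox gene as a purple line. Obox4-ps23 at -1.01 and Obox1 at -0.92 stood farthest to the left, and Obox5 at 0.22 was the 1 member above 0.

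All 8 members matched RefSeq loci by Entrez number, and all lay on chromosome 7 of GRCm38.p6. RefSeq listed 53 Obox loci, of which 6 were protein-coding and 47 pseudogenes. Of the protein-coding loci 5 had a feature, and Obox2, the other one, was not analysed here. Obox4 was represented by 38 loci typed as pseudogenes, and 2 of these had a feature. The annotated length of Obox4-ps23 was 1763 bases, shared exactly by 10 Obox4 loci including itself, and that of Obox4-ps30 was 729 bases, shared by 3. Near-identical copies can bind the same probe, so the Obox4 values may stand for more loci than the 2 named, and which copy was transcribed is uncertain. No probe sequences were compared, so the values of the other members may have the same limit. The members above 2-fold were both typed as pseudogenes, and 0 of the 5 protein-coding members were 2-fold higher on either array. Of all named genes 2.92% were on the UtxKO array and 2.52% on the V6.5 array, so nothing is read from 0 of 5. The median of the protein-coding members was 0.03 on the UtxKO array and 0.17 on the V6.5 array.

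Between the outermost Obox loci of chromosome 7 RefSeq placed 9 other loci, of which 2 were measured. The vomeronasal receptor gene Vmn1r90 had 0.29 on the UtxKO array and 0.16 on the V6.5 array, and the pseudogene Mrip-ps, next to Obox4-ps23, had 0.24 and 0.30 in the same order. Neither reached 2-fold. Beyond Obox6 followed Crx, a photoreceptor homeobox gene, with -0.13 on the UtxKO array and -0.0038 on the V6.5 array. Its neighbour Crxos, a homeobox gene of early embryos, had -0.31 on the UtxKO array and -0.40 on the V6.5 array. Obox4-ps30 and Obox1 were adjacent in the annotation, and the features named for them differed by more than 2 log2 units on each array. Because the Obox4 features may read other copies, their high ratios cannot be placed at these 2 positions.

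**Figure D4:**
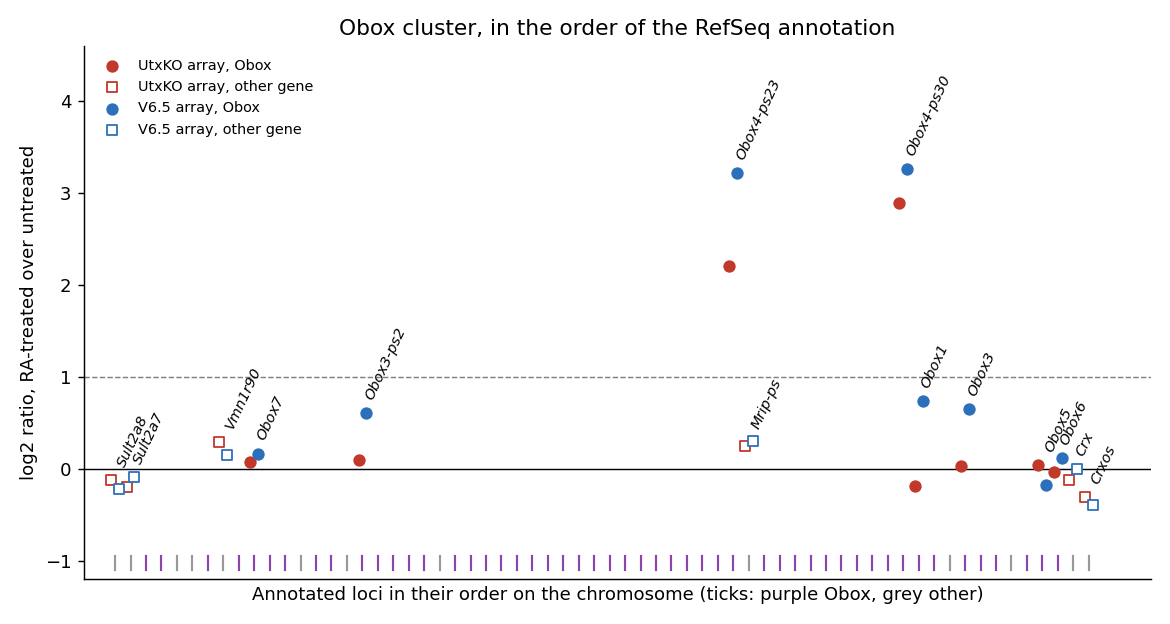
Log2 ratios of the measured genes of the Obox cluster and its flanks, in the order in which RefSeq places the loci on chromosome 7. UtxKO is red and V6.5 blue, filled circles are Obox genes, open squares other genes, and ticks mark every annotated locus. Both Obox4 copies stood above 2 on each array, while all other measured genes lay under 1.

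Promoters were available for 4 measured members, Obox1, Obox3, Obox5 and Obox7. They are shown as a description of the upstream sequence of these members. Each line gives the 250 bases before the annotated start, from RefSeq on GRCm38.p6, 5′ to 3′. Capitals mark the longest stretch that all 4 share, of 25 bases.
Obox1, chr7:15547007-15547256, plus strand: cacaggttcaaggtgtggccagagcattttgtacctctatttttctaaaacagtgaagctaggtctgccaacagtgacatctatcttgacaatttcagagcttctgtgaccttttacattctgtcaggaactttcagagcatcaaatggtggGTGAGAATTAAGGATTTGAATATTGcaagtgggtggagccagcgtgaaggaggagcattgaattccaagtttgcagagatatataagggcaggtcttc
Obox3, chr7:15639778-15640027, minus strand: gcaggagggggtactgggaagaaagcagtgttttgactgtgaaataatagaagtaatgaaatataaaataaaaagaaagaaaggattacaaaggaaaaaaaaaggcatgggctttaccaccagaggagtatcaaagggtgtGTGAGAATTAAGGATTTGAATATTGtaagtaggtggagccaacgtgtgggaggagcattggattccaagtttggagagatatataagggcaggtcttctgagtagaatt
Obox5, chr7:15750120-15750369, plus strand: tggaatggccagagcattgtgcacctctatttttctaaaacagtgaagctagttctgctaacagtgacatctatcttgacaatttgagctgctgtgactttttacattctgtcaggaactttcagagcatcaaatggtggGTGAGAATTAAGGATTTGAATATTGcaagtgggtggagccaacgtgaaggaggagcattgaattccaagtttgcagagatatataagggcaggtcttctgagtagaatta
Obox7, chr7:14659458-14659707, plus strand: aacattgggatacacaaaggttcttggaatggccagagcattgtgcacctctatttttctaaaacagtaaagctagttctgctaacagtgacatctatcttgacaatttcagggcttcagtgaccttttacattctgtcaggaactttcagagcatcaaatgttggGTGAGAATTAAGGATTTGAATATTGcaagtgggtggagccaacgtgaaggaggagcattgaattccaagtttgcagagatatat
The shared stretch ended 73 bases before the start of Obox1, 84 before Obox3, 85 before Obox5 and 59 before Obox7. Of 32851 mouse promoter windows of this length, 4 held it on either strand, which were those of these 4 genes. The stretch was defined on these 4 windows, so that they hold it was given. The window of 1 further Obox gene, which had no feature, did not hold it. The window of Obox1 was 95.8% identical to that of Obox5 over 238 aligned bases and 94.1% identical to that of Obox7 over 236. Obox5 and Obox7 were 97.3% identical over 224 bases. Obox3 was farther off, with 77.7% identity to Obox1 over 220 bases. On the V6.5 array the ratios were 0.73 for Obox1, -0.18 for Obox5, 0.17 for Obox7 and 0.65 for Obox3. On the UtxKO array all 4 lay between -0.19 and 0.08. Obox5 and Obox7 rest on 1 feature each, and a link between these windows and the ratios was not tested.

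Short cores bound by known factors were searched on both strands of these windows, and a match is a description of letters only. AGGTCA, the half-site of retinoid receptors, was in Obox1, 144 bases before the start, and in Obox7, 130 bases before it, both on the minus strand, and in 14% of all windows. Direct repeats of this half-site with a spacer of 2 or 5 bases, the arrangement of classical RA response elements, were in 0 of the 4. Each of these repeats was in 3 of the 32851 windows, or 0.00913%, so nothing is read from their lack here. GGATTA, the core bound by OTX-type homeodomains, was in Obox3 at 168 bases before the start, and in 6.25% of all windows. TATAAA was in Obox3 at 189 bases before the start and in 12.4% of all windows. Only these exact letters were searched. The variant TATATAAG, seen near the end of the windows of Obox1, Obox3 and Obox5, was not counted over all windows. The window of Obox7 ends with TATAT, so whether the rest of the variant follows there was not seen. TGCACAC, described as bound by Zscan4, was in 0 of the 4 and in 3.67% of all windows.

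The other genes of the 2-cell-like state were read from a list of 32 genes, of which 25 were measured. On the UtxKO array 13 were at least 2-fold higher and on the V6.5 array 19, with 0 lower on either. Of all named genes 2.92% were higher and 1.65% lower on the UtxKO array, and 2.52% and 1.59% on the V6.5 array. The list median was 1.08 on the UtxKO array and 1.99 on the V6.5 array, so the Obox4 copies, at 2.21 and 2.90 on the UtxKO array and at 3.22 and 3.26 on the V6.5 array, lay above it. Gm4340, a member of a multicopy gene group of this state, had 5.86 on the UtxKO array and 5.10 on the V6.5 array, and Zscan4f had 5.69 and 4.77 in the same order. At the other end, the zinc finger gene Zfp352 had -0.98 on the UtxKO array and -0.29 on the V6.5 array, and the translation factor gene Eif1a had -0.25 and -0.24. In this list 19 of 25 genes had a lower ratio in the knockout, beside 49.3% of all named genes.

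Multicopy families with members on the 2-cell-like list, each taken whole by gene symbol, differed among themselves. The Usp17l deubiquitinase genes had lower knockout ratios in 6 of 6 genes, with medians of 1.24 on the UtxKO array and 1.99 on the V6.5 array. Both Tcstv genes and 7 of 7 Tdpoz genes were lower in the knockout as well, and the median differences were -0.89 and -0.41. For the Zscan4 family, 1 of 5 genes was lower in the knockout and the median difference was 0.23. The Pramel family, of which only Pramel6 and Pramel7 are on that list, had 20 of 34 lower and a median difference of -0.04. Of all named genes 49.3% were lower in the knockout. The Obox median difference was -0.44 over all 8 members, and -0.15 without the 3 members typed as pseudogenes. Near-identical copies can bind the same probe in these families too, so the genes counted may not be separate readings. Differences between families were not tested.

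**Figure D5:**
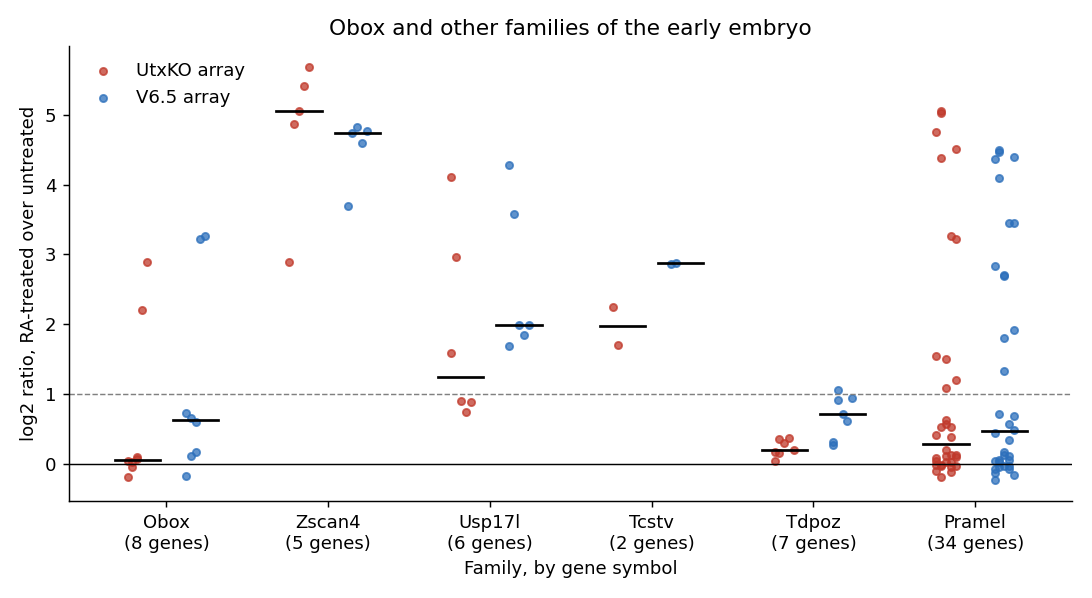
Log2 ratios of every gene of the Obox, Zscan4, Usp17l, Tcstv, Tdpoz and Pramel families, with UtxKO left in red and V6.5 right in blue, and family medians as black bars. The Obox family spanned -0.19 to 2.90 on the UtxKO array and -0.18 to 3.26 on the V6.5 array, with 2 genes above the dashed line at 1.

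Genes with the pattern most like that of a member were found by the Euclidean distance between the pairs of log2 ratios, that is, over 2 values per gene. Nearest to Obox4-ps30 were the hindbrain patterning gene Hoxb1 at a distance of 0.25, the endoderm pioneer factor Foxa1 at 0.30, Usp17lb at 0.32, and Pramel37 and Pramel19 at 0.37 and 0.41. Nearest to Obox4-ps23 were Tcstv1 at 0.36, the arginase gene Arg2 at 0.41, Tcstv3 at 0.60, the galectin gene Lgals4 at 0.67 and the actinin gene Actn2 at 0.71. Around each Obox4 copy the plane was thinly filled, with 7 genes (placeholder names aside) within 0.5 of Obox4-ps30 and 2 of Obox4-ps23. Obox5, the member with the lowest mean ratio, had 984 genes within 0.1, led by Lrp1b, Pcp4l1, Olfr1262, Olfr624 and Slc13a1 at distances of at most 0.0085, so its neighbours are not distinctive.

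Relatives among PRD-class and early-embryo homeobox genes gave a mixed picture. Of 32 listed genes 25 were measured. On the UtxKO array 4 were at least 2-fold higher and 2 lower, beside 2.92% and 1.65% of all named genes. On the V6.5 array 6 were higher and 2 lower, beside 2.52% and 1.59%. Duxbl2, of the double homeobox family, had 1.78 on the UtxKO array and 2.41 on the V6.5 array, and Rhox10, a homeobox gene of male germ cells, had 2.23 and 1.76. Otx2, the epiblast and forebrain factor whose homeodomain resembles that of Obox proteins, had -2.24 on the UtxKO array and -2.08 on the V6.5 array. Hesx1, a forebrain and pituitary repressor, had -1.64 and -1.68. The list median was 0.25 on the UtxKO array and 0.29 on the V6.5 array.

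Of 33 oocyte and maternal-effect genes 32 were measured, of which 2 were at least 2-fold higher and 1 lower on the UtxKO array, against 3 higher and 1 lower on the V6.5 array. Of all named genes 2.92% were higher and 1.65% lower on the UtxKO array, and 2.52% and 1.59% on the V6.5 array. The median was 0.05 on the UtxKO array and 0.08 on the V6.5 array. Sohlh1, a germ cell transcription factor, was 3.42-fold higher after RA on the UtxKO array and 2.83-fold on the V6.5 array, and Nlrp5, a maternal-effect gene, had log2 ratios of 0.71 and 1.22. Khdc3, another maternal-effect gene, had a log2 ratio of -1.03 on the UtxKO array and -1.56 on the V6.5 array, and Ooep -0.21 and -0.29.

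Markers of the ES cells themselves and of fibroblasts were read on the same arrays. Of 10 pluripotency markers 3 were at least 2-fold lower on the UtxKO array, beside 1.65% of named genes, and 1 on the V6.5 array, beside 1.59%, with Klf4 lowest by mean at -2.44 and -1.65 and Nanog highest at -0.16 and 0.29. Of 10 fibroblast markers 7 were at least 2-fold lower on each array. S100a4 was lowest by mean, at -2.63 on the UtxKO array and -1.95 on the V6.5 array, and Lum highest at -0.08 and -0.19. Both lines were kept on gelatin, and these genes are not read as a measure of feeder cells. The part of these markers in the Obox ratios was not tested. In bulk RNA, more cells in the 2-cell-like state, more Obox4 RNA per such cell and Obox4 RNA from other cells cannot be told apart.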

How the data were processed

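RNA of 2 ES cell lines was measured on dual-colour Agilent arrays, 1 array per line. The deposited table, used as it stands, holds 1 value per feature and array for 44397 features, taken as a log2 ratio with the RA-treated RNA on top. The log base was inferred: read as log2 the largest value, 5.86, means 58.3-fold, and read as a natural log 352-fold. Limma is named without version or role, per the submitters' processing notes, and the sources used here do not give the background correction or the normalization. Each column has a mean of 0, with medians of -0.03 for UtxKO and -0.03 for V6.5. Both arrays have the same dye orientation, so a dye bias at a gene is part of its ratio. The number of arrays limits the precision.

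Platform annotation gave 33026 features 1 symbol, 0 several and 11371 none, and features of a gene were averaged. Members, lists, the 2-fold threshold and the settings to vary were chosen with earlier results of these data known. Named genes were all Obox members, the ends of 5 gene lists, genes inside the Obox cluster and the 5 nearest genes of 3 members. The counting code was run on simulated data with changes set well past the threshold. That run checks the code only, not the precision of the values. Promoters and gene order came from RefSeq (GRCm38.p6). The genome build of the platform is not given in the sources used here. Python 3.11.15, numpy 2.4.6, pandas 2.3.3 and matplotlib 3.10.9 were used.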

Additional observations from a re-analysis of the deposited data

Results flagged for a closer look

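For 3 Obox genes the ratio had opposite signs on the 2 arrays, as it did for 24.4% of all named genes. Obox1 had -0.19 on the UtxKO array and 0.73 on the V6.5 array. Obox5 had 0.043 on the UtxKO array and -0.18 on the V6.5 array, and Obox6 had -0.036 and 0.12. These differences were not tested, since each line had 1 array. Those of Obox5 and Obox6 rest on 1 feature each. Both Obox6 values and the UtxKO value of Obox5 were smaller in size than the feature SD of 0.14, so their signs are uncertain.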

How the results depend on the processing

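No paired analysis was possible because each line had 1 array and the result comes from no test. Centring each column on its median over all features or over named genes, and taking the median feature of a gene, left all counts at 2 genes and moved no family median by more than the feature SD. Without the members typed as pseudogenes, which are Obox3-ps2 and both Obox4 copies, the V6.5 median was 0.17 and the median difference -0.15. In that setting 0 genes were past 2-fold on the UtxKO array, on the V6.5 array and on both. Of all named genes 2.92%, 2.52% and 1.69% were 2-fold higher in the same order. At 1.5-fold, 5 genes passed on the V6.5 array and 2 on the UtxKO array, and at 3-fold 2 passed on each. The V6.5 median was 0.78 with the highest feature of each gene and 0.91 when the values were read as natural logs, which scales every ratio and puts 3 genes past 2-fold on the V6.5 array. Leaving out each member in turn gave medians of 0.04 to 0.08 on the UtxKO array, 0.60 to 0.65 on the V6.5 array and -0.51 to -0.37 for the difference. Among values of single genes and arrays, 4 of 14 moved by more than the feature SD with features taken alone 2 of 16 with the highest feature and 7 of 16 as natural logs. Signal over background was not used here, so which ratios near 0 come from weak spots is unknown.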
